A study of Mus musculus with 16 samples.

Results

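The genes described here encode the chains of collagens and laminins, the structural proteins of the extracellular matrix. They were taken by symbol: after the RefSeq entries of the deposited tables were named, every gene whose symbol reads Col, number, a, number or Lam, a letter from a to c, number was kept, with the entry of the highest mean where a symbol had several. This gave 55 genes, 44 for collagen and 11 for laminin chains, from 58 entries, among 19338 genes with a symbol and 20633 entries in all. The measurements came from nuclear RNA-seq of mouse embryonic stem cells (ESCs), in which the RNA of isolated nuclei, depleted of ribosomal RNA, was sequenced. There were 4 groups of 4 libraries. PRC1/2-null cells were Eed-/-;Ring1a-/-;Ring1bfl/fl cells given 800 nM 4-hydroxytamoxifen for 72 h, PRC2-null cells were the same line untreated, PRC1-null cells were Ring1a-/-;Ring1bfl/fl cells given tamoxifen, and wild-type cells were that line untreated. All 4 groups, the wild-type cells included, therefore carried the Ring1a deletion and the floxed Ring1b alleles. Tamoxifen removes RING1B, the catalytic subunit of the histone H2A ubiquitin ligase PRC1, and Eed encodes a core subunit of the histone H3 methyltransferase PRC2. Every Eed-/- library came from 1 CRISPR clone, B4, at passages 30 to 40, against passages 25 to 35 for the parental line, so clone, passage and genotype cannot be told apart. All cells were grown without feeders and with leukemia-inhibitory factor.

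The value analysed for each gene was the deposited mean of its normalised read counts over all 16 libraries, a pooled signal with no value per library. It carries no SD, no library depth and no group, so each number below is a description of the level in this set of cultures as a whole, without a test, and differences between the 4 groups were not analysed here. A gene high in 1 group and low in the others and a gene at 1 level throughout can have the same mean. Levels of different genes were compared per kilobase of transcript, using the spliced length of the annotated transcript that belongs to each RefSeq entry. Because nuclear RNA holds unspliced transcripts, the same comparison was also made per kilobase of gene span, from the first to the last base of the gene.

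Collagens are trimers wound from chains in which glycine recurs at regular steps, and laminins are cross-shaped trimers of 1 α, 1 β and 1 γ chain. Laminin and collagen IV networks, joined by nidogen and perlecan, form the basement membrane, the sheet on which epithelia rest and the first extracellular matrix that the mouse embryo lays down. ESCs derive from the inner cell mass next to that matrix. Fibrillar collagens, by contrast, are known from connective tissue, bone and cartilage.

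Laminin and collagen genes were mostly detected, at levels that spread over the whole range of the transcriptome. A mean normalised count of at least 10 was reached by 51 of the 55 genes (92.7%), against 74.9% of all genes. At least 100 was reached by 31 (56.4%, against 57.6% of all genes) and at least 1000 by 12 (21.8%, against 22.7%). The median gene of the 55 stood at percentile 46.3 of all genes by mean normalised count and at percentile 37.3 per kilobase of transcript. The 2 families stood apart. All 11 laminin genes reached 10 and 10 of them reached 100, with a median level of 194 per kilobase of transcript. Of the 44 collagen genes 40 reached 10 and 21 reached 100, with a median level of 18.8 per kilobase. The limit of 100 had *Col5a2* (108) just above and *Col8a2* (93.6) just below it, and that of 1000 had *Lamb2* (1094) and *Col25a1* (961). A small set held most of the signal: the 55 genes made up 1.15% of the summed signal of all entries, and *Lamc1*, *Col4a1*, *Lama1*, *Lamb1* and *Col4a2* alone made up 0.981%.

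**Figure D1:**
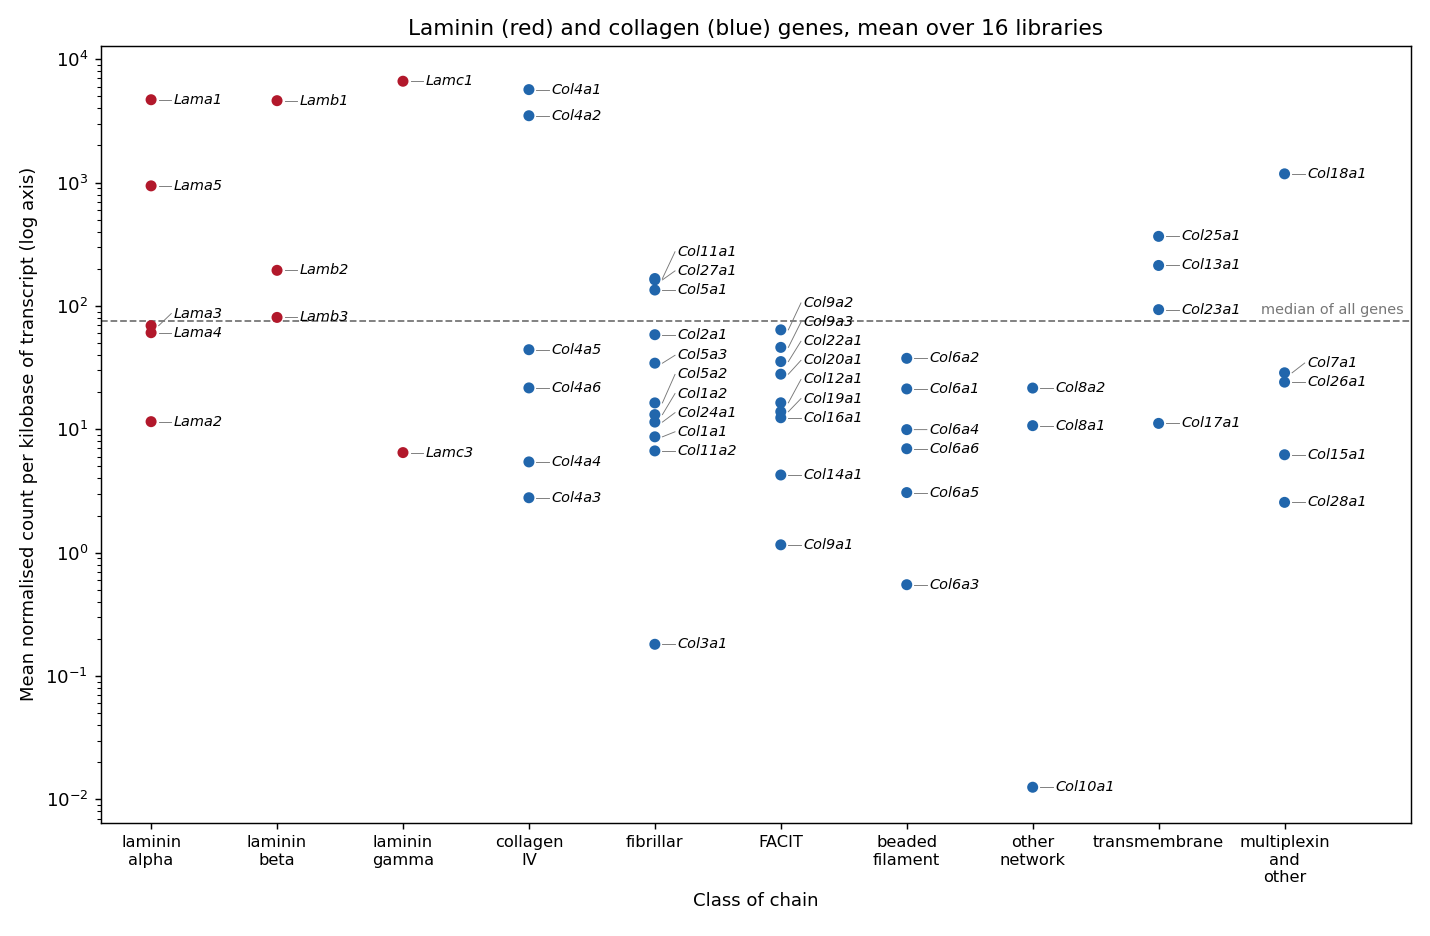
Mean normalised count per kilobase of transcript (log axis) of laminin genes (red) and collagen genes (blue), by class of chain; each point is 1 gene's mean over 16 libraries, with no error available, and the dashed line is the median of all genes (75.0). *Lama1*, *Lamb1*, *Lamc1*, *Col4a1* and *Col4a2* sit between 3482 and 6629, and *Col18a1* follows at 1177.

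The laminin genes had 1 dominant chain of each kind. *Lamc1* (NM_010683, chr1:153218922-153332786, minus strand), which encodes the γ1 chain found in most laminins, had a mean normalised count of 50523 and 6629 per kilobase of transcript, the rank of 40 among the 19233 genes with a length. *Lama1* (NM_008480, chr17:67697127-67822645, plus strand), for the α1 chain known from the basement membranes of the early embryo, had a mean of 44702 and 4693 per kilobase. *Lamb1* (NM_008482, chr12:31265146-31329644, plus strand), for the β1 chain that pairs with both, had a mean of 26674 and 4612 per kilobase. Per kilobase of transcript *Lamc1* was 1.41 times *Lama1* and 1.44 times *Lamb1*, and *Lamb1* was 0.983 times *Lama1*. Per kilobase of gene span the corresponding ratios were 1.25, 1.07 and 1.16, and per kilobase of coding length 2.17, 2.16 and 1.00. Undivided by length, *Lamb1* was 0.597 times *Lama1*.

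The other laminin chains were lower, *Lama5* the least so. *Lama5*, for the α5 chain that is widespread in later epithelia, had a mean of 10709 and 940 per kilobase of transcript, so that *Lama1* stood 4.99 times higher per kilobase of transcript and 1.65 times higher per kilobase of gene span. *Lama3* (mean 730, 69.2 per kilobase), *Lama4* (367, 60.7 per kilobase) and *Lama2* (111, 11.5 per kilobase) followed. *Lama3* encodes the α chain of the epidermal laminin, *Lama4* that of endothelium and *Lama2* that of muscle and peripheral nerve. Among the β chains *Lamb2*, which takes the place of β1 at the neuromuscular junction and in the glomerulus, had a mean of 1094 and 194 per kilobase, and *Lamb3*, the β chain of the epidermal laminin, a mean of 327 and 80.7 per kilobase. Among the γ chains *Lamc3* had a mean of 38.0 and 6.48 per kilobase, the lowest of the laminin genes.

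Summed per kilobase of transcript, the α chains held 32.4%, the β chains 27.4% and the γ chains 40.1% of the laminin signal. *Lama1* made up 81.3% of the α signal, *Lamb1* 94.4% of the β signal and *Lamc1* 92.7% of the γ signal. The order of the 3 kinds of chain depended on the length used. Per kilobase of coding length γ held 50.3%, α 26.6% and β 23.0%. Per kilobase of gene span α held 36.4%, β 32.9% and γ 30.6%, and *Lama1* made up 61.6% of the α signal and *Lamb1* 79.1% of the β signal, *Lama5* and *Lamb2* being genes of only 49532 and 10684 bases. Undivided by length, α held 41.0%, γ 38.6% and β 20.4%. No kind of chain was the highest under all 4 choices.

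**Figure D2:**
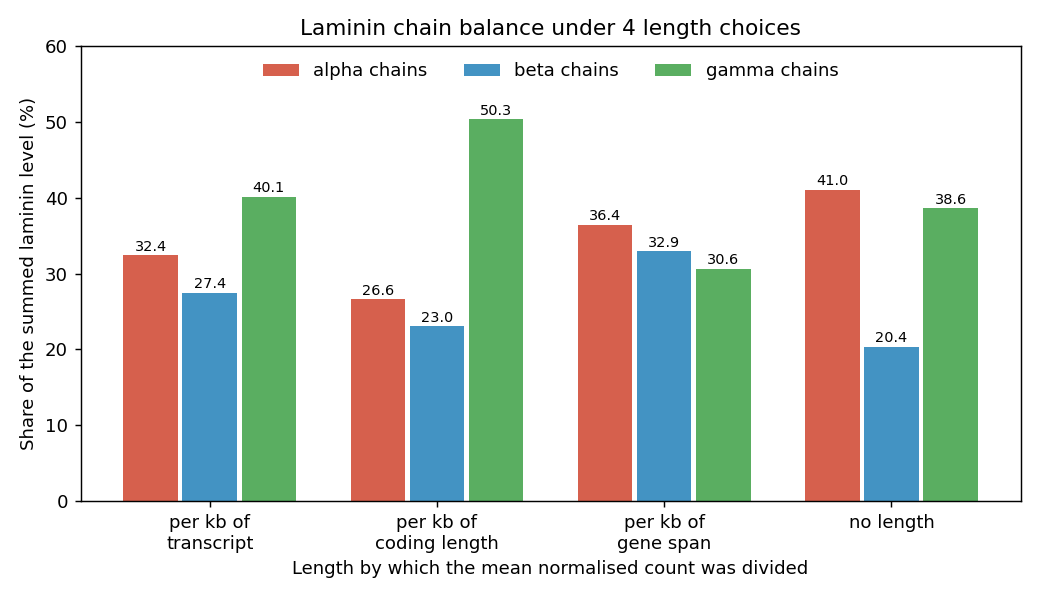
Share (%) of the summed laminin level held by the α, β and γ chains when the mean normalised count was divided by transcript length, coding length or gene span, or left undivided; each bar sums the 5 α, 3 β or 3 γ genes over 16 libraries, with no error available. The γ chains hold the most of the 3 kinds per kilobase of transcript (40.1%) and of coding length (50.3%) and the least per kilobase of gene span (30.6%).

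Collagen IV, the network-forming collagen of basement membranes, was the highest collagen, and almost all of it came from 2 of its 6 genes. *Col4a1* (NM_009931, chr8:11198423-11312889, minus strand) had a mean of 37504 and 5670 per kilobase of transcript, the rank of 45 among all genes with a length. *Col4a2* (NM_009932, chr8:11312805-11449287, plus strand) had a mean of 22459 and 3482 per kilobase, the rank of 115. These chains assemble into a trimer of 2 α1 and 1 α2 chains. *Col4a1* stood 1.63 times above *Col4a2* per kilobase of transcript and 1.99 times per kilobase of gene span. Per kilobase of coding length it stood 1.71 times above, and undivided by length 1.67 times. Whether the proteins follow these nuclear RNA levels was not tested. The pair made up 99.2% of the collagen IV signal per kilobase and 75.7% of that of all collagen genes. The remaining genes encode the chains of more restricted networks, such as those of the glomerulus and of smooth muscle. *Col4a5* had a mean of 289 (44.2 per kilobase), *Col4a6* 144 (21.7), *Col4a4* 55.0 (5.44) and *Col4a3* 23.8 (2.79).

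The 6 collagen IV genes lie as 3 head-to-head pairs, and within each pair both genes were of a like order of level. The genes of the *Col4a1* and *Col4a2* pair overlap by 85 bases at their starts and those of the *Col4a4* and *Col4a3* pair on chromosome 1 also overlap there, while *Col4a6* and *Col4a5* on the X chromosome are separated by 1274 bases. The higher gene of each pair exceeded the lower by 1.63 times for *Col4a1* over *Col4a2*, by 1.95 times for *Col4a4* over *Col4a3* and by 2.04 times for *Col4a5* over *Col4a6*, per kilobase of transcript. Between pairs the gap was much larger, since *Col4a1* stood 128 times above *Col4a5* per kilobase of transcript and 243 times per kilobase of gene span. Some other neighbours differed more. Within 500 kb there were 13 pairs of neighbouring collagen or laminin genes, 9 of them with no coding gene between. *Col5a2* stood 90.5 times above *Col3a1*, 24.6 kb away, per kilobase of transcript and 31.9 times per kilobase of gene span, where *Col3a1* had a mean of only 1.01. In the row of *Col6a6*, *Col6a5* and *Col6a4* on chromosome 9 all 3 genes were low, at 6.96, 3.07 and 9.94 per kilobase.

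*Col18a1*, a basement membrane collagen outside the collagen IV genes, is a multiplexin whose C-terminal part is released as endostatin. Its higher entry (NM_009929) had a mean of 5958 and 1177 per kilobase of transcript, the highest collagen after *Col4a1* and *Col4a2*. A second entry of the gene (NM_001109991) had a mean of 4816. The related multiplexin *Col15a1* had a mean of 32.2 and 6.22 per kilobase, so that the higher entry of *Col18a1* stood 189 times above it. *Col7a1*, for the collagen of the anchoring fibrils under the epidermis, had a mean of 264 (28.7 per kilobase). *Col26a1* had 65.7 (24.1 per kilobase), and *Col28a1* had 10.8 (2.56 per kilobase), just above the limit of 10.

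The fibrillar collagens were lower, from 0.181 to 167 per kilobase of transcript. Of 11 genes 10 reached a mean of 10, 6 reached 100 and 3 reached 1000. These 3 were *Col11a1* (mean 1279, 167 per kilobase of transcript) and *Col5a1* (1131, 135 per kilobase), whose products start and limit the growth of fibrils, and *Col27a1* (1238, 163 per kilobase), a minor fibrillar collagen of cartilage. *Col2a1*, for the main collagen of cartilage, had a mean of 284 (58.5 per kilobase), *Col5a3* 210 (34.4), *Col5a2* 108 (16.4), *Col1a2* 70.3 (13.2), *Col24a1* 81.7 (11.4) and *Col11a2* 40.4 (6.68). *Col1a1* and *Col1a2* encode the chains of collagen I, the main protein of bone, skin and tendon. *Col1a1* had a mean of 51.5 (8.69 per kilobase), and *Col1a2* stood 1.51 times above it per kilobase of transcript but 0.639 times as high per kilobase of gene span. *Col3a1*, for the collagen of vessel walls and reticular fibres, was the lowest fibrillar gene, at a mean of 1.01 and 0.181 per kilobase.

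Chains that can share a trimer were not always at a like level. *Col5a1* stood 8.22 times above *Col5a2*, the gene of another collagen V chain, per kilobase of transcript. *Col11a1* stood 25.0 times above *Col11a2* per kilobase of transcript and 4.62 times per kilobase of gene span. Collagen VI, which forms beaded filaments around cells, is built from *Col6a1*, *Col6a2* and 1 further chain. *Col6a2* had a mean of 149 (37.6 per kilobase) and *Col6a1* 87.1 (21.3 per kilobase). *Col6a3*, the further chain in most tissues, had a mean of 5.56 (0.550 per kilobase), so that *Col6a1* stood 38.6 times above it per kilobase of transcript and 70.1 times per kilobase of gene span. The alternative chains *Col6a4* (mean 73.3), *Col6a6* (61.1) and *Col6a5* (28.5) were all above *Col6a3* per kilobase, at 3.07 to 9.94. For collagen IX, a collagen on the surface of cartilage fibrils, *Col9a2* (mean 187, 64.0 per kilobase) and *Col9a3* (131, 46.1 per kilobase) were together, while *Col9a1* had a mean of 4.44 (1.16 per kilobase), so that *Col9a2* stood 55.3 times above it per kilobase of transcript and 201 times per kilobase of gene span. A second entry of *Col9a1* had a mean of 3.87.

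The 9 FACIT collagens, which attach to the surface of fibrils and include collagen IX, had means of 4.44 to 312, and none reached 1000. After *Col9a2* and *Col9a3*, the highest per kilobase of transcript was *Col22a1*, at a mean of 312 and 35.4 per kilobase. *Col12a1* (189), *Col20a1* (140), *Col16a1* (64.6), *Col19a1* (59.3) and *Col14a1* (24.2) had 4.26 to 28.0 per kilobase. The short-chain network collagens were low: *Col8a2* had a mean of 93.6 (21.6 per kilobase) and *Col8a1* 54.7 (10.7 per kilobase). *Col10a1*, the collagen of hypertrophic cartilage, was the lowest of all 55 genes at a mean of 0.0393 (0.0126 per kilobase). *Nt5dc1*, on the opposite strand, overlaps it.

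Among the transmembrane collagens, which sit in the plasma membrane and shed their extracellular parts, 3 of 4 reached a mean of 100. *Col25a1*, first known from amyloid plaques, had a mean of 961 (366 per kilobase of transcript), *Col13a1*, a collagen of the neuromuscular junction, 625 (213 per kilobase) and *Col23a1* 528 (93.3 per kilobase). *Col17a1*, a part of the hemidesmosome, had a mean of 62.4 (11.2 per kilobase). The rank of the first 3 depended on the length used. *Col25a1* took the rank of 9 among the 55 genes per kilobase of transcript and of 27 per kilobase of gene span, *Col13a1* 10 and 21, and *Col23a1* 15 and 29.

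Across all 55 genes the order per kilobase of transcript and per kilobase of gene span was alike, with a Spearman rho of 0.894 over genes that share the same mean in both quantities and are not replicates. Of the 8 highest genes by transcript, 7 were also among the 8 highest by gene span, where *Lamb2*, a gene of only 10684 bases, joined them. *Lama5* went from the rank of 7 by transcript to 5 by gene span, above *Col4a2*, which went from 5 to 6. The rank moved by more than 10 places for 12 genes. *Lama2*, which spans 635907 bases, went down to the rank of 49 and *Col1a1*, which spans 16819, up to the rank of 24.

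**Figure D3:**
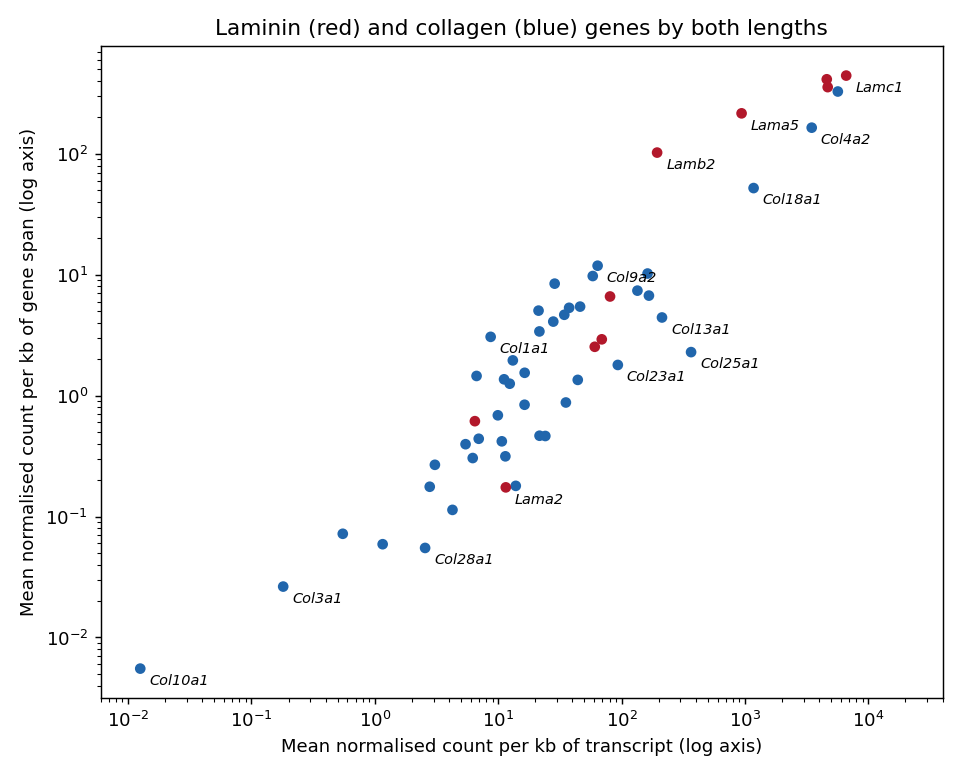
Mean normalised count per kilobase of gene span (vertical, log axis) against that per kilobase of transcript (horizontal, log axis) for 10 laminin genes (red) and 44 collagen genes (blue), each point 1 gene's mean over 16 libraries with no error available. *Lamc1* is highest on both axes and *Col10a1* lowest, and the long genes *Col25a1* and *Col23a1* lie below the trend.

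The promoters of these genes ranged widely in CpG content. PRC1 and PRC2 are known to act at CpG islands, stretches where CpG dinucleotides are not depleted, so CpG content was described for the RefSeq promoter window of 250 bases before to 50 after the start (build GRCm38.p6). A window was matched for 40 of the 55 genes, 5 of them laminin genes, and for 15192 genes in all. *Lamc1* and *Lama1*, at the ranks of 1 and 3 among the 55 per kilobase of transcript, had none. CpG observed over expected, the number of CpG divided by that expected from the C and G of the window, had a median of 0.456 for the 40 genes, against 0.658 for all genes. It ran from 0 to 0.902 in the 40 genes and from 0 to 1.51 in all genes, where the larger number of windows by itself widens the range. It was at least 0.6 in 13 of the 40 (32.5%), against 55.3% of all genes. Of the 5 highest genes per kilobase with a window, *Col4a1* (0.902) and *Col4a2* (0.818) had the most, and these windows overlap. *Lamb1* (0.615) and *Lama5* (0.607) stood near 0.6 and *Col18a1* had 0.538. *Col27a1* (0.639) and *Col11a2* (0.614) lay just above that limit and *Col16a1* (0.587), *Col4a5* (0.561) and *Col8a1* (0.543) just below it. *Col3a1*, *Col9a1* and *Col28a1* had no CpG at all.

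Over the 40 genes the level and the CpG content ran in the same direction, but the family medians did not. The 5 laminin windows had a median of 0.276 and the 35 collagen windows 0.470. That laminin median is the value of *Lamb2*, and *Lamc1* and *Lama1* had no window. By the limit of 0.6 the families did not stand this way, as 2 of the 5 laminin and 11 of the 35 collagen windows reached it. Within the 5 laminin windows CpG content fell in the order of level. Laminin genes had the higher median level, 194 against 18.8 per kilobase of transcript over all 55 genes. Of 11 genes with at least 100 per kilobase of transcript 8 reached 0.6 (72.7%, against 81.7% of all genes in that band), with a median of 0.639. Of 18 genes between 10 and 100 per kilobase 4 did (22.2%, against 55.4%), with a median of 0.411, and *Col8a1* (10.7 per kilobase) and *Col23a1* (93.3) lay close to these limits. Of 11 genes under 10 per kilobase 1 did (9.09%, against 13.0%), namely *Col11a2*, whose window was set on a start 299 bases from that of its transcript. The median of these 11 was 0.374, and *Col6a4* (9.94) lay just inside. In all genes the medians in the same bands were 0.814, 0.642 and 0.238. The Spearman rho between level per kilobase and CpG observed over expected was 0.544 over the 40 genes and 0.633 over all 15192, a description over genes that share base composition and libraries. In both upper bands the median of the laminin and collagen genes was below that of all genes, and in the lowest band above it. *Lamb3*, at 80.7 per kilobase, had 0.0761 and *Lamb2*, at 194, had 0.276, while *Col8a2*, at 21.6, had 0.832.

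**Figure D4:**
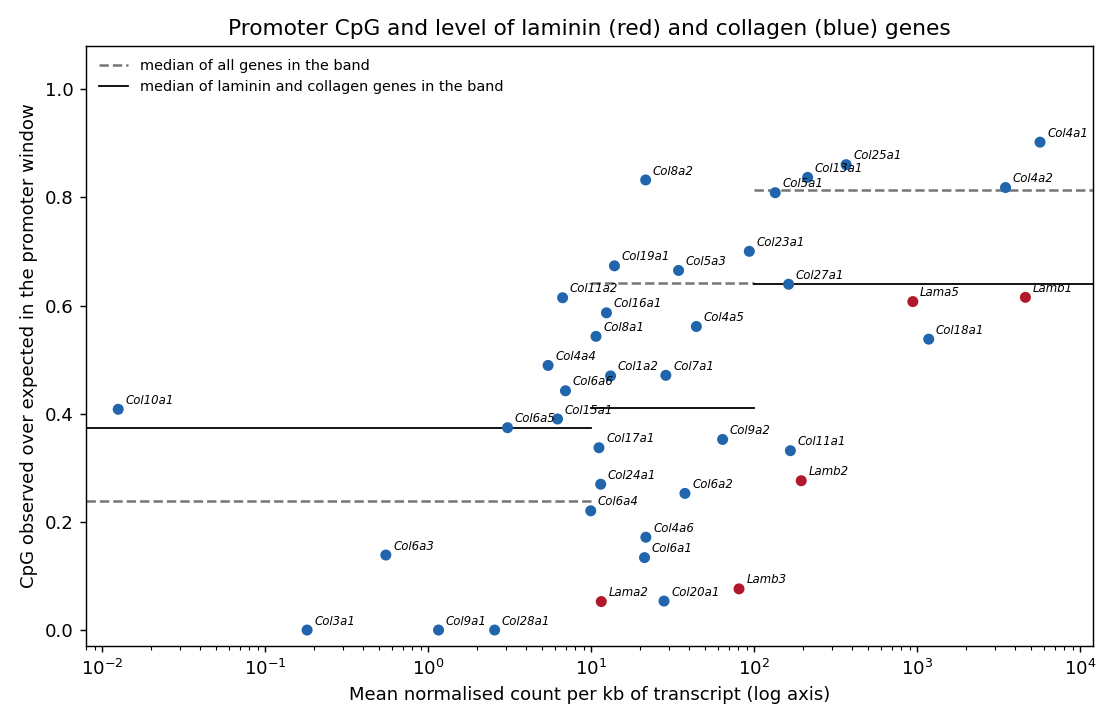
CpG observed over expected in the promoter window of 250 bases before to 50 after the start (vertical) against mean normalised count per kilobase of transcript (horizontal, log axis) for 5 laminin (red) and 35 collagen (blue) genes; points are genes, black lines their median per band of level and dashed lines the median of all genes in that band. *Col4a1* and *Col4a2* are at the upper right and *Col3a1*, *Col9a1* and *Col28a1* lie at 0.

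The sequences of the 3 highest and the 3 lowest genes per kilobase for which at least 150 bases before the start hold no annotated exon are shown as examples. They are the bases upstream of the start, 5′ to 3′ on the strand of the gene, from RefSeq on GRCm38.p6, and capitals mark CpG dinucleotides.
Col18a1, chr10:77166549-77166780, minus strand: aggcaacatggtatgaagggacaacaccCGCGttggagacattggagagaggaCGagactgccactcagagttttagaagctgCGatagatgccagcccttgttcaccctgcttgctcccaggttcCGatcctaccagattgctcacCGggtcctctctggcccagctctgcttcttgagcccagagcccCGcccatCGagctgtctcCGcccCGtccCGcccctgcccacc
Lama5, chr2:180225905-180226109, minus strand: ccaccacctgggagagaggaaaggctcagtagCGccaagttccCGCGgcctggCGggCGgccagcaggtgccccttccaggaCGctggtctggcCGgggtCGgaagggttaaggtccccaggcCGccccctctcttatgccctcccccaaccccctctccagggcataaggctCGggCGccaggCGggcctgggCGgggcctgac
Col13a1, chr10:61979207-61979358, minus strand: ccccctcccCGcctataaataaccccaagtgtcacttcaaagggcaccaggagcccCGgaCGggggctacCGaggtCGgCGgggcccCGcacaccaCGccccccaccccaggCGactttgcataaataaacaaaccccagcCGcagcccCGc
Col6a3, chr1:90844002-90844221, minus strand: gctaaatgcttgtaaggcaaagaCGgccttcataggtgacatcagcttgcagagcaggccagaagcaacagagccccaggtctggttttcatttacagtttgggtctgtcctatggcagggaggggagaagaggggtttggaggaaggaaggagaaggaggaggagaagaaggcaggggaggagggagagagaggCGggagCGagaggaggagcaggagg
Col3a1, chr1:45311288-45311537, plus strand: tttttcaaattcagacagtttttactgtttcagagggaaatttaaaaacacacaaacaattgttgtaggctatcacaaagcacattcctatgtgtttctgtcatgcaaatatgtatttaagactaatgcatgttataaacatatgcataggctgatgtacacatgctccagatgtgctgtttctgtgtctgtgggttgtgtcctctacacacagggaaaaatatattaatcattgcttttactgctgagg
Col10a1, chr10:34389731-34389980, plus strand: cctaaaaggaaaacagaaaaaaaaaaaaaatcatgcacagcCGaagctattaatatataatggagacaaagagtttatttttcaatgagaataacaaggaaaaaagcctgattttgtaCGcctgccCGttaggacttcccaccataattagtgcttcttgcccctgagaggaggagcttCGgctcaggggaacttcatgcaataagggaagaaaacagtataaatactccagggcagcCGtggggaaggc

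The stretch of *Col18a1* holds 11 CpG in 232 bases, that of *Lama5* 13 in 205 and that of *Col13a1* 11 in 152. The stretch of *Col6a3* holds 3 in 220, that of *Col3a1* 0 in 250 and that of *Col10a1* 5 in 250. *Col4a1*, *Lamb1* and *Col4a2*, which stood higher, had fewer than 150 such bases and are not shown. Of the stretches not shown, that of the next highest gene, *Col11a1*, holds 3 in 189, and that of the next lowest, *Col9a1*, 0 in 229. Both strands of each whole window were also searched for 3 core promoter motifs. GGGCGG, the GC box, was found in 25 of the 40 windows (62.5%, against 52.8% of all genes), in 9 of the 11 genes with at least 100 per kilobase (81.8%, against 70.4% of all genes in that band) and 4 of the 11 under 10 (36.4%, against 20.3%). CCAAT was found in 13 (32.5%, against 37.5% of all genes), from *Col4a1* at the highest level to *Col6a4* at the lowest. It was in 6 of the 11 genes with at least 100 per kilobase (54.5%, against 38.5% of all genes in that band). Between 10 and 100 it was in 6 of 18 (33.3%, against 37.1%), and under 10 in 1 of 11 (9.09%, against 36.3%). TATAAA was found in 5 (12.5%, against 10.2% of all genes), namely *Col13a1*, *Col17a1*, *Col11a2*, *Col3a1* and *Col10a1*. A match is a run of letters and no evidence of a bound factor.

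The genes that make, modify and bind these chains were read from lists written from textbook knowledge. Beside the counts below, 74.9% of all genes had a mean of at least 10 and 57.6% at least 100. Of 30 collagen processing enzymes 29 were found, all with a mean of at least 10 and 23 with at least 100. *P4hb*, the shared subunit of prolyl 4-hydroxylase (3070 per kilobase of transcript), and *Serpinh1*, the collagen chaperone (2143), were highest, and *Lox*, which starts the cross-linking of collagen (3.29), was lowest. Of 14 receptors 13 were found, 11 with at least 100. *Itga6* (2017 per kilobase) and *Itgb1* (1961), whose products form an integrin that binds laminin, were highest, and *Itga2*, for a collagen-binding integrin chain, was lowest (7.35). Of 17 basement membrane partners 16 were found, 15 with at least 100. *Sparc* (8781 per kilobase), for a collagen-binding protein, and *Hspg2* (1995), for perlecan, were highest, and *Frem1* (11.2) was lowest.

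Markers of ESCs and of other cell types that such a culture could hold were read in the same way. Since 74.9% of all genes had a mean of at least 10 and 57.6% at least 100, reaching these limits does not by itself show a cell type. Of 20 markers of ESCs 18 were found, all with a mean of at least 100, from *Nr0b1* (188 per kilobase of transcript) to *Tfcp2l1* (1561) and *Tdgf1* (1851). Primitive endoderm, the layer that secretes laminin and collagen IV in the embryo, had 10 of 12 markers with a mean of at least 10. *Sparc* (8781 per kilobase), which is also in the list of basement membrane partners, and *Gata4* (1398) were highest. *Hnf4a* (7.85 per kilobase) and *Foxa2* (77.6) were the lowest of these 10. *Afp* (mean 3.32) and *Ttr* (mean 1.10, 0.929 per kilobase), known from the visceral endoderm that forms later, were below 10. The part of such cells in the levels of *Lama1*, *Lamb1*, *Lamc1*, *Col4a1* and *Col4a2* was not tested. Of 13 fibroblast markers 9 reached 10, with *Fn1* (2816 per kilobase) and *Vim* (140) highest. *Dcn*, *Postn*, *S100a4* and *Lum*, the last at 0.116 per kilobase, had means of at most 1.42. All 5 endothelium markers reached 10, from *Kdr* (13.4 per kilobase) to *Tek* (213) and *Pecam1* (390). In a bulk measurement fewer cells of a type and less RNA per cell cannot be told apart.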

How the data were processed

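Nuclear RNA was sequenced in biological quadruplicate for 4 groups with a directional kit. The authors filtered out ribosomal reads with Bowtie 2, mapped the rest to mm10 with STAR, removed PCR duplicates and used DESeq2. Removal of duplicates can lower the counts of the highest genes. The authors deposited 3 tables, 1 for each comparison with wild type. The signal used here is the deposited mean normalised count of each RefSeq entry over all 16 libraries, which was the same in the 3 tables (largest difference 0). The remaining 6 columns of each table hold the authors' own comparison (log2 fold changes, their standard error, the test statistic and p-values) and were not used. No column of values per library was used, so depth, spread and tests are not given. Whether counting covered exons or whole genes, and used strand, is not given in the sources used here. By GENCODE bounds 23 of the 55 genes overlap a gene on the opposite strand, and by RefSeq bounds *Col4a4* also overlaps *Col4a3*.

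Symbols were assigned to 20560 of 20633 entries, 20450 through RefSeq (GRCm38.p6) and 110 through GENCODE M21, and 73 had none. Lengths came from the GENCODE M21 transcript paired with the accession for all 55 genes, and for 19233 of 19338 genes in all. Transcript lengths had been planned from RefSeq exons, and protein sequences, also planned, were not used here. Ranks and percentiles were computed over all genes. Promoter windows were the RefSeq windows nearest the start of that transcript. In 10 of 40 the start that the window was set on lay more than 50 bases from the transcript start, at most 299.

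Every gene was named or counted, except that the values of 1 laminin gene are not reported here, which the counts and sums include and the figures of single genes leave out. In each class the 3 highest and the lowest per kilobase, and from each list the 2 highest and the lowest, were given in full, with any gene within 10% of a threshold on levels or on CpG content. Other marker genes named, the ratios, the motifs and the sequences were chosen after values were seen. The genes and lists were chosen with earlier results of these data known. Alternatives changed the length, the entry, the table, the threshold, the genes ranked and the window. Functions were tested on simulated data. Tables were read with pandas 2.3.3 and numpy 2.4.6, figures drawn with matplotlib 3.10.9, and rank correlations taken from scipy 1.17.1, all under Python 3.11.15.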

Additional observations from a re-analysis of the deposited data

How the results depend on the processing

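With no spread between libraries, a value or count was taken as moved when it changed by over 1.5 times. Of 38 alternative values 35 did not move. Some of these could not have: the means read from the other deposited tables were the same values. High shares could not have risen by that factor, only fallen. The count of 51 genes with a mean of at least 10 became 52 at a threshold of 5, 44 at 50 and 31 at 100, which is the only count that moved. Adding all entries of a symbol gave *Col18a1* a mean of 10774 in place of 5958 and *Col9a1* 8.31 in place of 4.44. The median percentile of 46.3 became 43.7 over genes above 0 and 45.5 over all entries, and the median CpG observed over expected of 0.456 became 0.438 in the 250 bases before the start. Shares of chains stayed within 1.5 times of their value under every length, although the order of α, β and γ chains did not hold. No paired analysis was possible because the tables hold no value per library, and leaving out a replicate was not run for the same reason. The length of the glycine repeat of collagen proteins was not run, as no protein sequence was used here. The error of each level cannot be sized from a pooled mean, which holds neither spread between libraries nor the difference between the 4 groups.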
